A study of Mus musculus with 8 samples.

Results

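The T and cytotoxic lymphocyte genes are a list of 34 genes of the T cell receptor, its signalling partners, T cell fate and cell killing. They were taken by symbol from the arrays of whole colon, each gene represented by its brightest transcript cluster, which is the array's unit of measurement for a transcript. Of the 34 genes, 32 were measured, among 22180 genes in all. Cd247, the zeta chain of the T cell receptor complex, and Lck, the kinase that starts its signal, were not analysed here.

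The arrays compare 4 Ptch1ΔCol1 mice with 4 controls, 7 days after tamoxifen at 5 mg per 25 g of body weight. All 4 Ptch1ΔCol1 mice carried Col1a2CreER and Ptch1fl/fl, and replicates 1 and 2 also R26-LSL-tdTomato. Control replicates 1 and 2 were Ptch1fl/+ and replicates 3 and 4 R26-tdTomato, and no Cre is named for any of the 4. All 8 mice received tamoxifen. The labels describe each array as a separate mouse and give no ages. The Col1a2 promoter drives Cre in stromal fibroblasts of many organs, and tamoxifen was given systemically. Activity of Cre in lymphocytes was not measured here. Ptch1ΔCol1 replicate 3 and control replicate 2 were males and the other 6 mice females. RNA came from a 1 cm piece of distal colon that holds epithelium, lamina propria, lymphoid follicles and muscle. In such tissue fewer T cells and less RNA per T cell cannot be told apart.

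T cells recognise antigen through a receptor whose signal passes through the CD3 chains to the kinase Zap70 and the adaptor Lat, helped by the co-receptors CD4 or CD8. In the colon they lie in lymphoid follicles, in the lamina propria and, as intraepithelial lymphocytes, between epithelial cells. Naive T cells circulate through lymphoid tissue by means of Ccr7, regulatory T cells depend on Foxp3, and cytotoxic T cells and NK cells kill with perforin and granzymes. The question put to the arrays was what activation of Hedgehog (Hh) signalling in stromal cells does to gene expression in normal colon.

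Values are on the log2 scale of the robust multi-array average, so a difference of 1 is a change by a factor of 2. The genotype was visible in the Hh response gene Gli1, which was higher in all 4 Ptch1ΔCol1 mice (log2 fold change 1.36, standard error, SE, of 0.10, limma's adjusted p = 0.00203 with Benjamini-Hochberg adjustment). Array medians ranged from 4.69 to 4.8. Ptch1ΔCol1 replicate 3 stood apart, with a mean correlation of 0.979 with the other arrays, where those of the other 7 mice were from 0.985 to 0.987. Of the 32 measured genes, 17 had a mean below 4.67, percentile 40 of all genes, and are called dim here, and 15 lay above it. The constant regions of the T cell receptor chains (Trac, Trbc1, Trbc2 and others), which would mark T cells most directly, were likewise not analysed here.

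The sequences before the genes are shown for the CD3 genes, which lie side by side on chromosome 9 and include Cd3g, the member with the widest range among the mice, and for Bcl11b, the gene with the smallest p. Each runs from 250 bases before to 50 after the start of transcription (RefSeq, GRCm38.p6). Capitals mark AGGAAG, a core bound by ETS factors, or AGATAA, a core bound by GATA factors, on either strand. These matches are letters and not measured binding sites.

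Cd3g (chr9:44980382-44980681, minus strand): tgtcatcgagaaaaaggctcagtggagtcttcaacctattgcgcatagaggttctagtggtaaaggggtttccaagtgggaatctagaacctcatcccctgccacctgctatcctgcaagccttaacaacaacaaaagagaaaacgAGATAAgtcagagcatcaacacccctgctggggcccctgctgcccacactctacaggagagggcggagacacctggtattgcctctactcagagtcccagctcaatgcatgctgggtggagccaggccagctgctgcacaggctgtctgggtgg

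Cd3d (chr9:44981536-44981835, plus strand): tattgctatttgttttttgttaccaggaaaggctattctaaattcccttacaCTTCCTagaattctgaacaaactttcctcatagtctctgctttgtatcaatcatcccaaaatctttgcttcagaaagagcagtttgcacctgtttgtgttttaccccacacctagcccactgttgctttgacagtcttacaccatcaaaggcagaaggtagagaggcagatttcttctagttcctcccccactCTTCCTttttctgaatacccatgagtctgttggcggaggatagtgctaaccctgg

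Cd3e (chr9:45009562-45009861, minus strand): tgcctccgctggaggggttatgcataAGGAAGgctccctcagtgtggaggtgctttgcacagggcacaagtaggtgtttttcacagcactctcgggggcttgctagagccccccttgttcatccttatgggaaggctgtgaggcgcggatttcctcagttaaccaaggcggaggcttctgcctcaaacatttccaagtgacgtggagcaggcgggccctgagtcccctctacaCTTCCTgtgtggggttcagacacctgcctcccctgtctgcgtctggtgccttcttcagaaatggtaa

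Bcl11b (chr12:108003365-108003664, minus strand): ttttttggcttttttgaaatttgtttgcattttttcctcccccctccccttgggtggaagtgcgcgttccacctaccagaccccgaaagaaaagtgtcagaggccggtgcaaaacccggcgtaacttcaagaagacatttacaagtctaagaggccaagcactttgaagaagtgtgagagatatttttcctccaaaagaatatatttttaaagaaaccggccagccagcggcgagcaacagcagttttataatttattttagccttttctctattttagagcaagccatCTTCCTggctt

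No protein-coding gene lies between Cd3g, Cd3d and Cd3e in the same gene table. Other members are neighbours in the same way, namely Cd8a and Cd8b1 on chromosome 6, Cd5 and Cd6 on chromosome 19, and Cd28, Ctla4 and Icos on chromosome 1. The Cd3d and Cd3e stretches each hold AGGAAG in 2 places, that of Bcl11b in 1 place, and that of Cd3g has AGATAA in 1 place. Over all 32851 promoter stretches of this length, 35.4% hold AGGAAG and 11.2% hold AGATAA. GACCACCCA, the core bound by the Hh effectors of the Gli family, was in 0 of 26 stretches that belong to 22 of the members and in 0.253% of all stretches, searched on both strands.

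No member passed the test between Ptch1ΔCol1 mice and controls. Of the 32 genes, 26 had a lower and 6 a higher mean in Ptch1ΔCol1 mice, a share of 81.2% lower, where 52.3% of all genes were lower. In limma with Benjamini-Hochberg adjustment over all genes, 0 members were called in either direction (0.018% of all genes were called higher and 0.00902% lower), and the smallest adjusted p was 0.448. At an unadjusted p under 0.05, 3 members were lower, namely Bcl11b, Cd96 and Tbx21 (4.91% of all genes were lower at this p), and 0 were higher (4.31% of all genes). The groups did not overlap for 0 members, where 2.47% of all genes were higher and 2.9% lower without overlap. The median log2 fold change of the members was -0.16, and that of all genes -0.01.

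The mice of a group differed from each other by more than the groups did. Averaged over the 32 genes, each centred on its own mean, the values were 0.04, -0.11, -0.30 and 0.05 in Ptch1ΔCol1 replicates 1 to 4 and -0.04, 0.33, -0.11 and 0.14 in control replicates 1 to 4 (log2 units). The mean was -0.08 ± 0.17 in Ptch1ΔCol1 mice and 0.08 ± 0.20 in controls (SD, n = 4). The lowest and the highest mouse, Ptch1ΔCol1 replicate 3 and control replicate 2, were the males, and the 6 females overlapped.

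**Figure D1:**
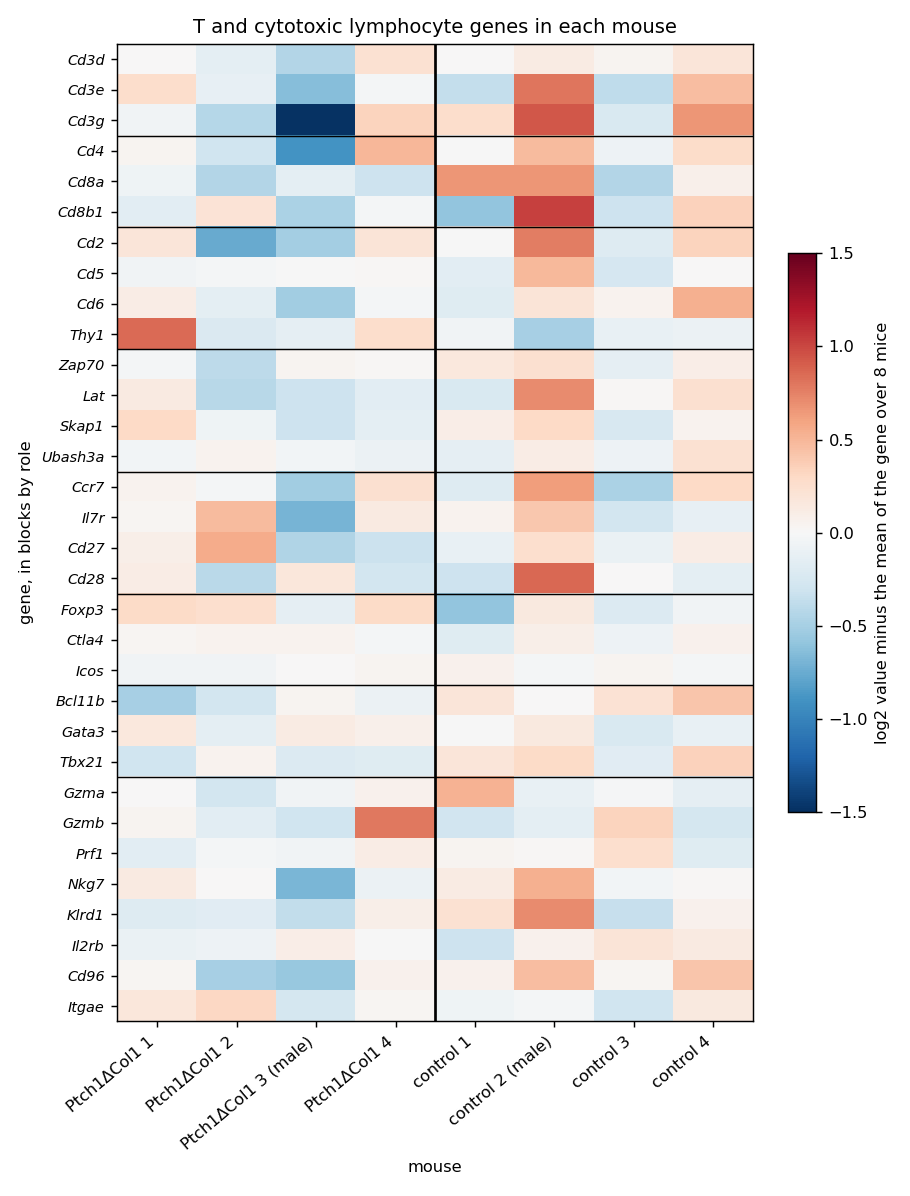
Heat map of the 32 measured T and cytotoxic lymphocyte genes (rows, in blocks by role) in each of the 8 mice (columns), coloured by the log2 value minus the mean of the gene over the 8 mice. Control replicate 2 was the highest mouse for 15 genes and Ptch1ΔCol1 replicate 3 the lowest for 13.

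Control replicate 2 was the highest of the 8 mice for 15 of the 32 members (46.9%; 11.7% over all genes), and Ptch1ΔCol1 replicate 3 was the lowest for 13 (40.6%; 17.7% over all genes), with ties counted for each mouse. For Cd3e, Cd3g, Ccr7, Nkg7, Klrd1 and Cd96 both held at once. Ptch1ΔCol1 replicate 3 lay below all 4 controls for 16 members (25.9% of all genes), and replicate 2 did so for 12 (27.9% of all genes). Replicates 1 and 4 of that group did so for 3 and 4 members (27.6% and 25.4% of all genes). Control replicate 2 lay above all 4 Ptch1ΔCol1 mice for 17 members (18.1% of all genes), and control replicate 4 for 15 (19.8% of all genes). Control replicates 1 and 3 lay above all 4 Ptch1ΔCol1 mice for 7 and 3 members (18% of all genes for each of these mice).

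Without the 2 males, which were the lowest and the highest mouse of the list mean, the list was no longer lower on average. Leaving out these 2 mice brings the groups closer whatever their sex. In the 3 females per group, 14 members were higher and 18 lower in Ptch1ΔCol1 mice (54.1% of all genes were lower), with a median log2 fold change of -0.04 and a difference in the list mean of -0.00. In limma 0 members passed in females (0.0135% of all genes), and the smallest adjusted p was 0.299. At an unadjusted p under 0.05, Foxp3 was higher (4.92% of all genes) and Bcl11b lower (5.85% of all genes). The same 2 genes were the only members whose groups did not overlap in females (6.74% of all genes were higher and 9.82% lower without overlap). Without Ptch1ΔCol1 replicate 3 alone the difference in the list mean was -0.09, and without control replicate 2 alone it was -0.08.

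The difference between the sexes in the effect of the genotype was also fitted, as an interaction in limma. At an unadjusted p under 0.05 it was negative, lower in the males, for 11 members (6.23% of all genes) and positive for 1, Bcl11b (6.07% of all genes). None passed when adjusted (0.0361% of all genes), the closest being Nkg7 with an interaction of -1.21 on the log2 scale (adjusted p = 0.0886 from limma), Il7r with -1.44 (0.132) and Cd3g with -2.13 (0.169). With 1 male per group, sex and the individual mouse cannot be told apart, and the spread in this fit comes from the females alone. The 2 males are the mice already described as the extremes of the list, so these interactions restate that difference and are no further evidence of it.

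**Figure D2:**
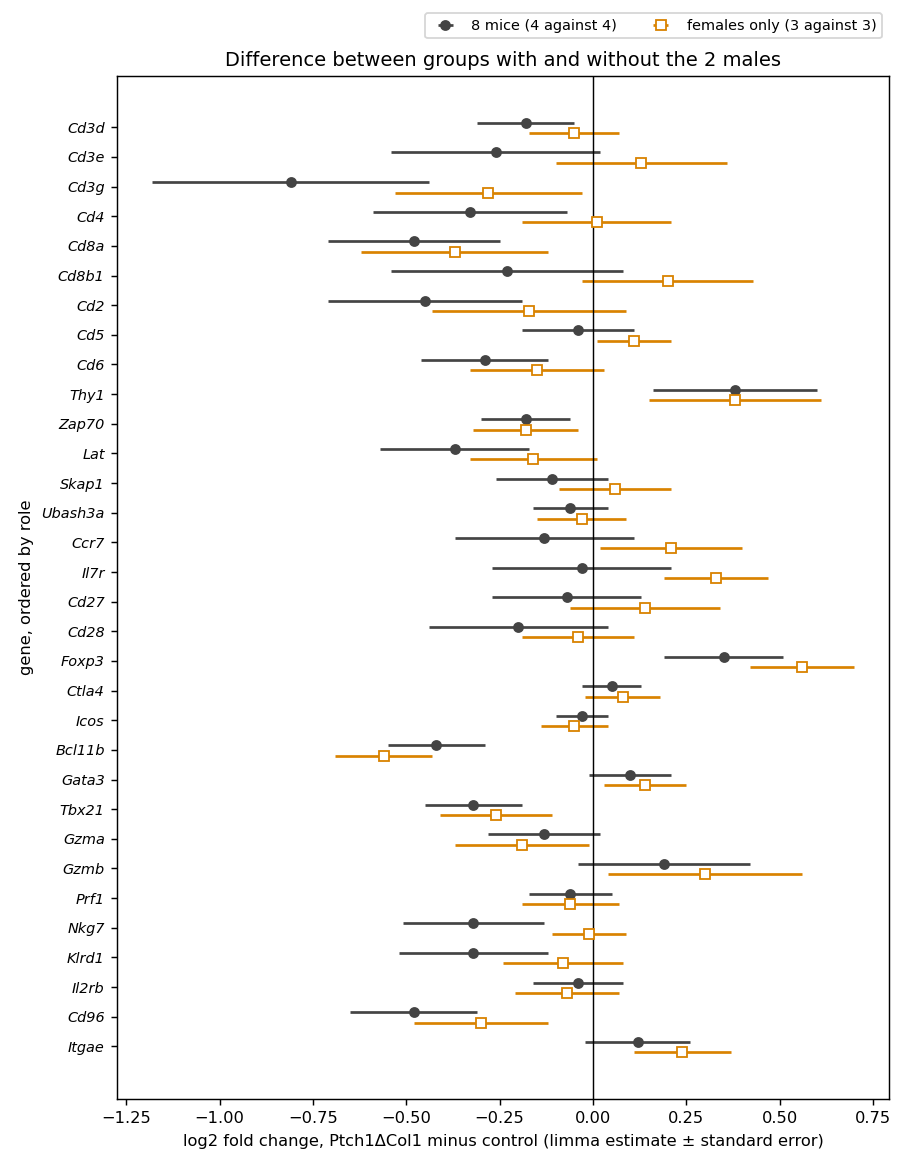
Log2 fold change of each of the 32 members, Ptch1ΔCol1 minus control, with its SE from limma, over all 8 mice (filled circles) and over the 6 females (open squares). The estimates over all mice lie mostly left of 0, with 26 of 32 lower, and those over the females lie on both sides, with 18 of 32 lower.

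The subunits of the T cell receptor complex were all lower on average and none passed. Cd3g, which encodes the gamma chain of CD3, was at 4.91, 4.54, 3.48 and 5.30 in Ptch1ΔCol1 replicates 1 to 4 and at 5.23, 5.89, 4.74 and 5.62 in control replicates 1 to 4 (log2 units). Ptch1ΔCol1 replicate 3 was the lowest by far and control replicate 2 the highest, and the other 6 values overlapped between the groups. The log2 fold change was -0.81 (SE 0.37, 95% interval -1.64 to 0.02, limma's adjusted p = 0.551), the largest in size of all members, and was -0.45 without Ptch1ΔCol1 replicate 3 and -0.28 in females (SE 0.25). Cd3e, the epsilon chain, was at 5.39, 5.00, 4.48 and 5.09 in Ptch1ΔCol1 mice and at 4.77, 5.93, 4.74 and 5.58 in controls. The controls spanned more than the Ptch1ΔCol1 mice, with replicates 1 and 3 below 3 of the 4 Ptch1ΔCol1 values. The log2 fold change of Cd3e was -0.26 (SE 0.28, limma's adjusted p = 0.801) and turned to 0.13 in females (SE 0.23). Cd3d, the delta chain, is a dim gene here and ranged from 2.60 to 3.27 over the 8 mice, with Ptch1ΔCol1 replicate 3 again the lowest.

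The co-receptors divide helper from cytotoxic T cells. Cd4, carried by helper and regulatory T cells and also by some myeloid cells, was at 5.35, 5.01, 4.41 and 5.81 in Ptch1ΔCol1 mice and at 5.30, 5.78, 5.24 and 5.59 in controls (log2 units). Ptch1ΔCol1 replicate 3 was the lowest mouse, and replicate 4 of the same group was the highest. For Cd4 the log2 fold change was -0.33 (SE 0.26, limma's adjusted p = 0.722), and it was -0.09 without Ptch1ΔCol1 replicate 3, -0.55 without Ptch1ΔCol1 replicate 4 and 0.01 in females (SE 0.20). Cd8a, the alpha chain of CD8 that intraepithelial lymphocytes also carry as a homodimer, was at 4.11, 3.73, 4.03 and 3.86 in Ptch1ΔCol1 mice and at 4.83, 4.84, 3.74 and 4.25 in controls. Control replicates 1, 2 and 4 lay above all Ptch1ΔCol1 mice and replicate 3 below 3 of them. Its log2 fold change was -0.48 (95% interval -0.99 to 0.03, limma's adjusted p = 0.565), and was -0.90 against the Ptch1fl/+ controls and -0.06 against the R26-tdTomato controls. Cd8b1, the beta chain found on conventional CD8 T cells, was at 4.10, 4.46, 3.78 and 4.23 in Ptch1ΔCol1 mice and at 3.66, 5.28, 3.94 and 4.60 in controls, and its controls held both the lowest and the highest mouse. Its log2 fold change was -0.23 (SE 0.31, limma's adjusted p = 0.853) and 0.20 in females. The 2 chains of CD8 thus did not order the mice alike, since control replicate 1 was next to the highest mouse for Cd8a and the lowest for Cd8b1.

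Among the surface receptors that modulate T cell activation, Cd2, Cd5 and Cd6 were lower on average and Thy1 higher. Cd2, an adhesion receptor of T and NK cells, was at 4.76, 3.83, 4.07 and 4.77 in Ptch1ΔCol1 mice and at 4.57, 5.35, 4.39 and 4.91 in controls (log2 units), with overlap of the groups and a log2 fold change of -0.45 (SE 0.26, limma's adjusted p = 0.624). It was -0.27 without Ptch1ΔCol1 replicate 2, -0.27 without control replicate 2 and -0.17 in females. Cd5, a receptor that dampens the signal of the T cell receptor, differed little, with a log2 fold change of -0.04 (95% interval -0.36 to 0.29), and Cd6, a related receptor, had one of -0.29 (95% interval -0.68 to 0.09). Thy1 is a surface protein of mouse T cells that neurons and fibroblasts also carry. It was at 7.74, 6.67, 6.76 and 7.15 in Ptch1ΔCol1 mice and at 6.84, 6.39, 6.78 and 6.80 in controls. Control replicate 2, which was the highest mouse for many T cell genes, was the lowest for Thy1, and Ptch1ΔCol1 replicate 1 was the highest. The log2 fold change of Thy1 was 0.38 (SE 0.22, limma's adjusted p = 0.623), and 0.16 without Ptch1ΔCol1 replicate 1.

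The signalling proteins next to the receptor had log2 fold changes from -0.37 for Lat to -0.06 for Ubash3a, which encodes a phosphatase family protein that restrains the signal. Lat, the adaptor on which the signalling complex is built, was at 4.92, 4.37, 4.48 and 4.63 in Ptch1ΔCol1 mice and at 4.56, 5.50, 4.80 and 5.03 in controls (log2 units). The groups overlapped, and the highest value was again that of control replicate 2 (limma's adjusted p = 0.591; log2 fold change -0.20 without that mouse and -0.16 in females, SE 0.17). Zap70, the kinase recruited by the CD3 chains, was at 4.23, 3.86, 4.30 and 4.27 in Ptch1ΔCol1 mice and at 4.42, 4.50, 4.12 and 4.35 in controls. Ptch1ΔCol1 replicate 2 was the low value, the other 3 mice lay within the range of the controls, and the log2 fold change was -0.18 (SE 0.12, limma's adjusted p = 0.672), or -0.08 without replicate 2. Skap1, an adaptor that links the receptor to integrins, had a log2 fold change of -0.11 (SE 0.15).

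**Figure D3:**
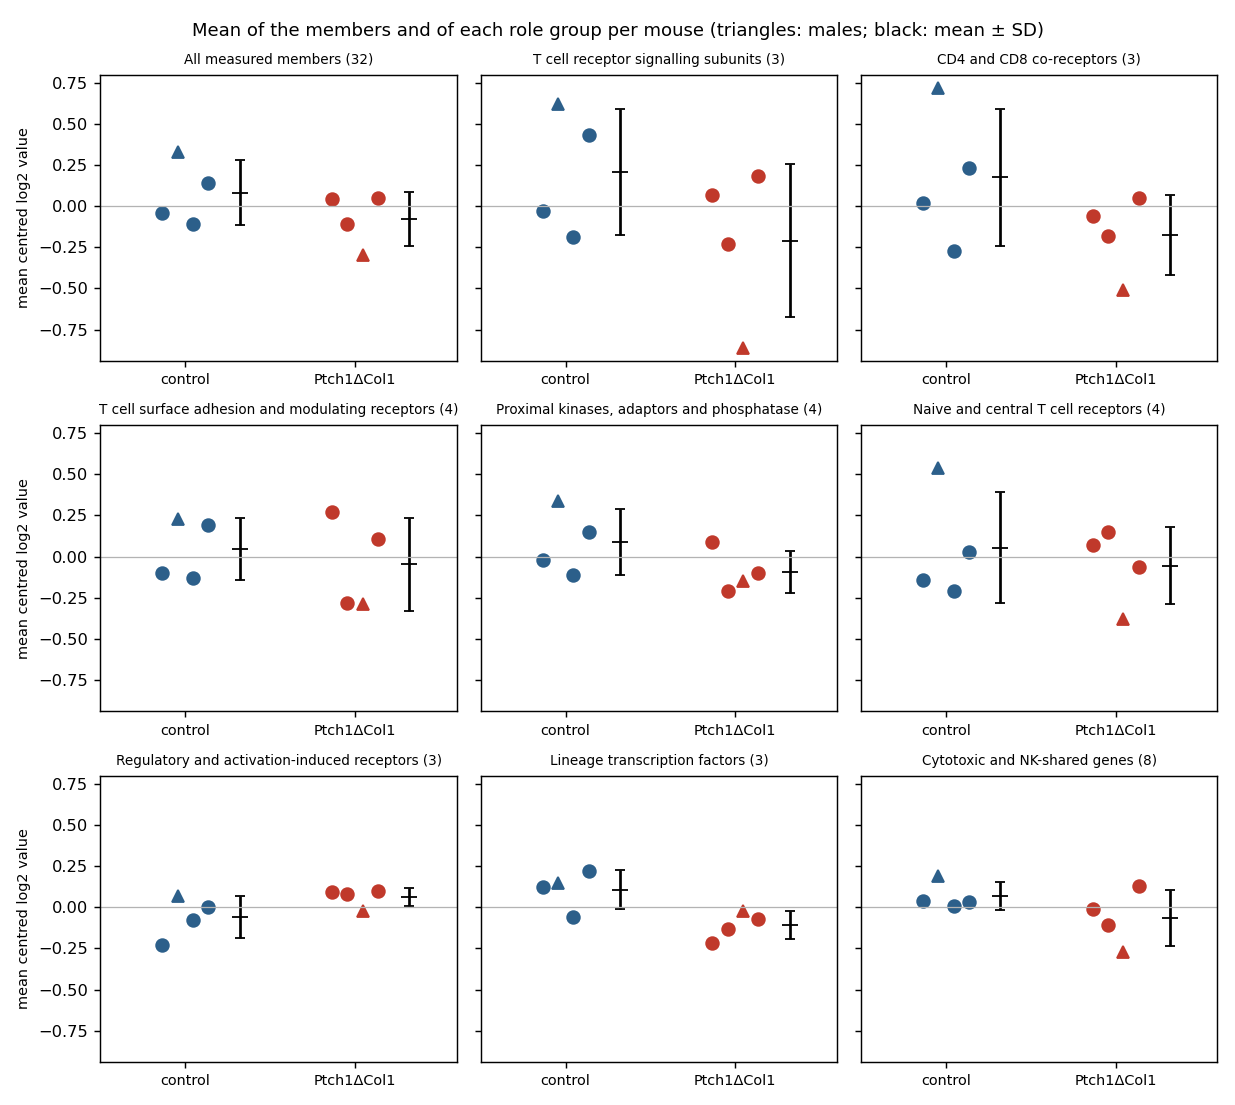
Mean of all 32 measured members and of each of 8 role groups in every mouse (y axis, log2 value centred on each gene's mean; number of genes in brackets), with males as triangles and the mean ± SD of 4 mice in black. The means overlap between the groups in all 9 panels, and the 2 males are the outermost mice for the whole list, the receptor subunits, the co-receptors, the naive receptors and the cytotoxic genes.

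The genes that mark naive and central T cells all had a lower mean in Ptch1ΔCol1 mice over the 8 mice, by little, and 3 of the 4 a higher one in females. Ccr7, the homing receptor that mature dendritic cells and B cells also carry, was at 5.98, 5.90, 5.41 and 6.17 in Ptch1ΔCol1 mice and at 5.73, 6.56, 5.45 and 6.23 in controls (log2 units). Its log2 fold change was -0.13 (SE 0.24, limma's adjusted p = 0.901) and 0.21 in females (SE 0.19). Il7r, the receptor for the survival factor interleukin-7 and also a marker of innate lymphoid cells, was at 5.44, 5.89, 4.71 and 5.54 in Ptch1ΔCol1 mice and at 5.46, 5.82, 5.13 and 5.29 in controls. Ptch1ΔCol1 replicate 3 was the lowest mouse and replicate 2 of the same group the highest. The log2 fold change of Il7r was -0.03 (95% interval -0.56 to 0.50) over 8 mice and 0.33 in females (SE 0.14, limma's adjusted p = 0.464). Cd28, the main co-stimulatory receptor, was at 4.42, 3.91, 4.48 and 4.03 in Ptch1ΔCol1 mice and at 4.00, 5.17, 4.32 and 4.16 in controls, where replicate 2 stood above every other mouse. Its log2 fold change was -0.20 (95% interval -0.74 to 0.34). Cd27, a co-stimulatory receptor of the tumour necrosis factor receptor family, had a log2 fold change of -0.07 (95% interval -0.52 to 0.39). The mean of the 4 genes was -0.05 ± 0.23 in Ptch1ΔCol1 mice and 0.05 ± 0.34 in controls (centred log2 units, SD, n = 4).

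Of the regulatory genes, Foxp3 and Ctla4 had a higher mean in Ptch1ΔCol1 mice and Icos a lower one, and none passed. Foxp3, the transcription factor that defines regulatory T cells, was at 3.63, 3.59, 3.21 and 3.63 in Ptch1ΔCol1 mice and at 2.75, 3.49, 3.13 and 3.29 in controls (log2 units). The 3 Ptch1ΔCol1 females lay close together and above all controls, and the male lay within the range of the controls. The log2 fold change was 0.35 (SE 0.16, 95% interval -0.01 to 0.71, limma's adjusted p = 0.556; exact permutation p, two-sided, = 0.0857), and in females 0.56 (SE 0.14, limma's adjusted p = 0.299). Without control replicate 1, the lowest mouse, it was 0.21 over the other 7. Foxp3 is a dim gene on these arrays. Ctla4, an inhibitory receptor that regulatory and activated T cells carry, was among the dimmest, with a range from 2.59 to 2.85 over the 8 mice and a log2 fold change of 0.05 (95% interval -0.14 to 0.24). Icos, a co-stimulatory receptor of activated T cells, ranged from 4.75 to 4.87 over the 8 mice, the narrowest range of the list, and did not follow the other T cell genes in control replicate 2 or Ptch1ΔCol1 replicate 3.

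Among the transcription factors of T cell lineages, Bcl11b and Tbx21 had unadjusted p under 0.05 and Gata3 did not. Bcl11b, which fixes T cell fate in the thymus and is also made in neurons and skin, was at 7.33, 7.55, 7.87 and 7.74 in Ptch1ΔCol1 mice and at 8.01, 7.84, 8.05 and 8.25 in controls (log2 units). The groups touched only where Ptch1ΔCol1 replicate 3 lay above control replicate 2. The log2 fold change was -0.42 (SE 0.13, 95% interval -0.71 to -0.12, limma's adjusted p = 0.448; exact permutation p, two-sided, = 0.0571). In females it was -0.56 (SE 0.13, limma's adjusted p = 0.299), equal in size to that of Foxp3 and above that of every other member, where the CD3 chains were between -0.28 and 0.13. Bcl11b thus did not follow the CD3 genes from mouse to mouse, since the mouse with the lowest CD3 values had the highest Bcl11b of its group. Tbx21, the factor of type 1 helper cells and NK cells, was at 3.67, 4.02, 3.76 and 3.79 in Ptch1ΔCol1 mice and at 4.15, 4.26, 3.80 and 4.31 in controls. Control replicates 1, 2 and 4 lay above all Ptch1ΔCol1 mice and replicate 3 among them (log2 fold change -0.32, SE 0.13, limma's adjusted p = 0.514; exact permutation p, two-sided, = 0.0571). Gata3, the factor of type 2 helper cells and type 2 innate lymphoid cells, had a log2 fold change of 0.10 (SE 0.11), and its second, dimmer transcript cluster one of -0.22, so that its direction depended on the cluster.

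**Figure D4:**
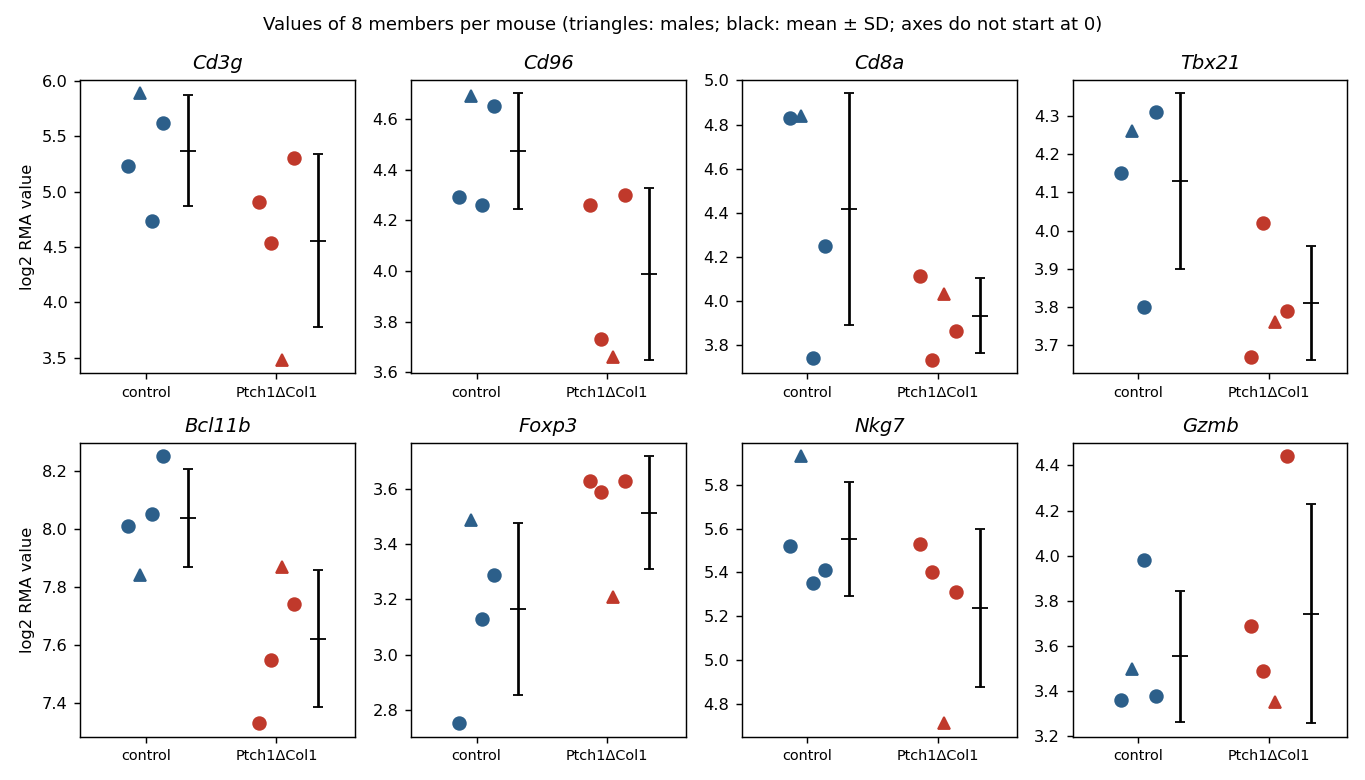
Log2 RMA values of 8 members in each control and Ptch1ΔCol1 mouse, with males as triangles and the mean ± SD of 4 mice in black. The highest value of Cd3g, Cd96, Cd8a and Nkg7 is that of the male control, the 3 Ptch1ΔCol1 females are the highest for Foxp3, and Bcl11b is lower in the Ptch1ΔCol1 females than in every control.

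Among the cytotoxic genes, Cd96, Klrd1 and Nkg7 had the same lowest and highest mouse as Cd3g, and none of the 8 passed. Cd96, an adhesion receptor of T and NK cells, was at 4.26, 3.73, 3.66 and 4.30 in Ptch1ΔCol1 mice and at 4.29, 4.69, 4.26 and 4.65 in controls (log2 units). Ptch1ΔCol1 replicates 2 and 3 were the low mice, replicates 1 and 4 lay among the lower controls, and the log2 fold change was -0.48 (SE 0.17, 95% interval -0.87 to -0.10, limma's adjusted p = 0.479; exact permutation p, two-sided, = 0.143). In females it was -0.30 (SE 0.18). Klrd1, which encodes CD94 of NK and CD8 T cells, was at 3.60, 3.62, 3.43 and 3.88 in Ptch1ΔCol1 mice and at 4.02, 4.50, 3.45 and 3.86 in controls, a log2 fold change of -0.32 (SE 0.20) that was -0.14 without control replicate 2, -0.49 without control replicate 3 and -0.08 in females. Nkg7, a protein of cytotoxic granules, showed the same order of the extremes, and its log2 fold change of -0.32 (SE 0.19, limma's adjusted p = 0.633) was -0.01 in females (SE 0.10).

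The granule effectors themselves had neither male as highest or lowest mouse, apart from the lowest value of Gzmb. Gzma, which encodes granzyme A, was at 3.22, 2.95, 3.17 and 3.28 in Ptch1ΔCol1 mice and at 3.74, 3.11, 3.20 and 3.09 in controls (log2 units), with control replicate 1 well above the other 7 mice. Gzmb, which encodes granzyme B, was at 3.69, 3.49, 3.35 and 4.44 in Ptch1ΔCol1 mice and at 3.36, 3.50, 3.98 and 3.38 in controls. Ptch1ΔCol1 replicate 4 and control replicate 3 were the high mice, and neither was the highest for Gzma. Prf1, which encodes perforin, was at 4.52, 4.65, 4.62 and 4.79 in Ptch1ΔCol1 mice and at 4.72, 4.69, 4.93 and 4.50 in controls, all within a range of 0.43 and with both extremes among the controls. The log2 fold changes of these 3 genes were -0.13, 0.19 and -0.06, with 95% intervals of -0.46 to 0.20, -0.33 to 0.71 and -0.30 to 0.17 and adjusted p from limma of 0.818, 0.833 and 0.88. Il2rb, a chain of the interleukin-2 and interleukin-15 receptors, and Itgae, the integrin chain CD103 that holds intraepithelial lymphocytes to E-cadherin, had log2 fold changes of -0.04 and 0.12 (95% intervals -0.30 to 0.22 and -0.18 to 0.43). The mean of all 8 cytotoxic genes was 0.07 ± 0.08 in controls and -0.07 ± 0.17 in Ptch1ΔCol1 mice (centred log2 units, SD, n = 4).

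Other genes of T cells were also mostly lower on average, and none passed. Of 46 further T cell genes outside the list, 35 were measured. Of these, 32 were lower (52.3% of all genes) and 3 higher in Ptch1ΔCol1 mice, with a median log2 fold change of -0.13. In limma 0 passed over all genes. At an unadjusted p under 0.05, 4 were lower (4.91% of all genes) and 0 higher (4.31% of all genes). These were Satb1, a chromatin organiser of T cells and other cells (-0.36, SE 0.13), the chemokine receptor Ccr6 (-0.57, 0.20), the adhesion receptor Slamf6 (-0.61, 0.25) and the Ras activator Rasgrp1 (-0.44, 0.18), each given as log2 fold change and standard error, with adjusted p from limma between 0.479 and 0.518. Ccr6 and Slamf6 are also made by B cells. Next in order were Cd7, at -0.66, and the egress receptor S1pr1, at -0.42. In females 20 of the 35 were lower (54.1% of all genes), 13 higher and 2 equal, with a median of -0.02. The mean of the 35 was lowest in Ptch1ΔCol1 replicate 3, at -0.28, and highest in control replicate 2, at 0.27 (centred log2 units). These are the extreme mice of the members too.

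Of 22 further NK and cytotoxic genes, all measured, 12 were higher and 10 lower (52.3% of all genes), with a median log2 fold change of 0.04. Of these 17 are dim genes, and in limma 0 passed over all genes. At an unadjusted p under 0.05, 2 were lower (4.91% of all genes) and 0 higher (4.31% of all genes). Serpinb9, which encodes an inhibitor of granzyme B that many immune and non-immune cells make, was at 7.47, 7.27, 6.78 and 7.40 in Ptch1ΔCol1 mice and at 7.83, 7.77, 7.74 and 7.79 in controls (log2 units). All 4 Ptch1ΔCol1 mice lay below all 4 controls (log2 fold change -0.55, SE 0.14, limma's adjusted p = 0.361). The exact permutation p, two-sided, was 0.029, which groups of 4 cannot go below. Of all genes, 2.9% were lower and 2.47% higher without overlap. Ctsw, a protease of cytotoxic cells, had a log2 fold change of -0.35 (SE 0.15), and the chemokine gene Ccl5 one of -0.36. Those of Klrc2, Klre1 and Cd160, receptors of NK and cytotoxic T cells, were -0.18, 0.16 and 0.14.

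Markers of some other leukocytes, but not of all, shared extreme mice with the T cell genes. The mean of 15 measured B cell and follicle markers was -0.16, -0.50, -1.11 and 0.16 in Ptch1ΔCol1 replicates 1 to 4 and 0.40, 1.01, -0.43 and 0.63 in control replicates 1 to 4 (centred log2 units), so that the same mice were lowest and highest as for the T cell genes. All 15 were lower in Ptch1ΔCol1 mice (52.3% of all genes), with a median log2 fold change of -0.82 that was -0.38 in females. Cxcr5, the follicle homing receptor, had a log2 fold change of -0.78 (limma's adjusted p = 0.449) and the B cell factor Pax5 one of -0.60 (0.462). The mean of 12 pan-leukocyte genes was -1.05 in Ptch1ΔCol1 replicate 3, from 0.03 to 0.28 in the other Ptch1ΔCol1 mice and from -0.03 to 0.42 in controls. Ptprc, which encodes the leukocyte antigen CD45, was at 7.51, 7.23, 5.93 and 7.84 in Ptch1ΔCol1 mice and at 7.85, 8.14, 7.48 and 7.81 in controls. Macrophage and dendritic cell markers were also lowest in Ptch1ΔCol1 replicate 3, at -0.61, and lay between -0.09 and 0.10 in controls, where replicate 2 was at -0.00. The mean of 8 plasma cell markers was lowest in Ptch1ΔCol1 replicate 3, at -0.31, with control replicate 1 close to it at -0.28. It was highest in control replicate 2, at 0.35, with Ptch1ΔCol1 replicate 1 close to it at 0.30. The mean of 8 neutrophil markers was at 1.42 in Ptch1ΔCol1 replicate 2 and from -0.37 to 0.18 in the other 7 mice. For the neutrophil markers control replicate 2 was the lowest mouse, and Ptch1ΔCol1 replicate 3 was at -0.14. That list includes Ly6g, which ranged from 10.96 to 11.90 and whose probe annotation was not checked. Outside the leukocytes, 8 of 8 smooth muscle, 8 of 10 epithelial and 5 of 8 fibroblast markers were higher in Ptch1ΔCol1 mice (47.0% of all genes). Their median log2 fold changes were 0.12, 0.05 and 0.08, and none passed in limma. The groups did not overlap for 3 of the smooth muscle markers (2.47% of all genes were higher without overlap). What part the content of follicles, leukocytes or other tissue in each piece has in the values of the T cell genes was not tested.

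**Figure D5:**
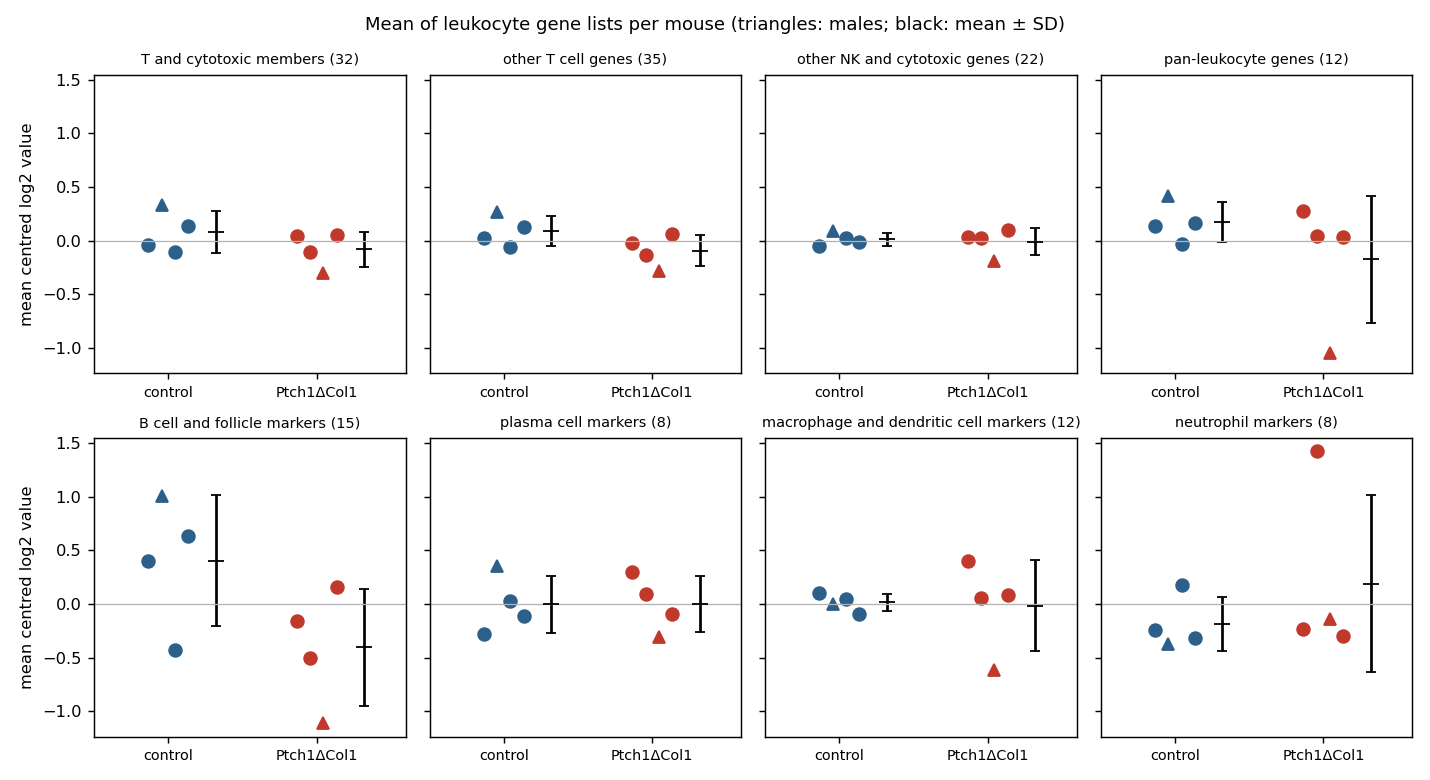
Mean of 8 lists of leukocyte genes in every mouse (y axis, log2 value centred on each gene's mean; number of measured genes in brackets), with males as triangles and the mean ± SD of 4 mice in black. Ptch1ΔCol1 replicate 3 is the lowest mouse for the T cell, NK, pan-leukocyte, B cell, plasma cell and macrophage lists, and control replicate 2 is the highest for the T cell, pan-leukocyte, B cell and plasma cell lists.

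The reporter allele was fitted in the same way as sex, with R26-LSL-tdTomato of the Ptch1ΔCol1 mice and R26-tdTomato of the controls taken as 1 allele, although the labels spell them differently and do not say that they are the same. At an unadjusted p under 0.05 the effect of the genotype differed with the reporter for 6 members, higher with it for Cd8a, Cd27, Il7r, Nkg7 and Skap1 (2.43% of all genes) and lower with it for Bcl11b (2.82% of all genes). None of them passed (adjusted p = 0.901 from limma; 0.0% of all genes passed). Among the controls the reporter and the floxed Ptch1 allele cannot be told apart, since each control carried 1 of the 2. Both males, the extreme mice of the list, were without the reporter in their labels, and all mice with it were females. The reporter is thus mixed with sex and with these 2 mice, here and in the comparisons with each kind of control. Control replicate 2, the highest mouse, is a Ptch1fl/+ control. Against the 2 Ptch1fl/+ controls alone the difference in the list mean was -0.23, and against the 2 R26-tdTomato controls alone it was -0.09, with 0 members called in limma in either case.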

How the data were processed

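RNA of whole distal colon of 8 mice was hybridised to single-colour Affymetrix arrays (Mouse Gene ST 2.0), 1 array per mouse. The deposited values are log2 intensities that the authors normalized by RMA (robust multi-array average, summarised by median polish). For its software and annotation, nothing is given in the sources used here. Of 41345 transcript clusters, 23521 have 1 symbol in the probe table (1820 have several and 16004 none), of which 23328 took the symbol of a RefSeq table (GRCm38.p6) by gene ID. The brightest cluster per gene was kept, and among the members Gata3 alone has several. The test was limma's (version 3.58.1, R 4.3.3: lmFit, eBayes, Benjamini-Hochberg over 22180 genes, threshold 0.05), fitted without covariates to the 4 Ptch1ΔCol1 mice and the 4 controls. Single genes also have an exact permutation p, two-sided, from all 70 relabellings (smallest p 0.029). The fit was tested on simulated data. The number of arrays limits the precision.

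The members, their role groups and the other gene lists were chosen with earlier results of these data known, and list means carry no test. Values per mouse are given for members with an unadjusted p under 0.05, without overlap of the groups or with an outlying sample, for 11 defining genes, and for the largest difference of each role group. Cd5, Cd6, Nkg7 and other members outside this rule are given by their fold changes or ranges. Up to 6 genes with the smallest p are named of the other T cell and NK lists. The same replicate number did not pair the mice. Alternatives are given in the closing section.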

Additional observations from a re-analysis of the deposited data

Results flagged for a closer look

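Of 106 groups of 4 values examined (members, list means and named T and NK genes), 6 held a sample far from the other 3, and chance gives about 1 group in 20. Thy1 in controls was lowest in replicate 2, at 6.39, with the others from 6.78 to 6.84. Zap70 in Ptch1ΔCol1 mice was lowest in replicate 2, at 3.86, with the others from 4.23 to 4.30. Foxp3 in Ptch1ΔCol1 mice was lowest in replicate 3, at 3.21, with the others from 3.59 to 3.63, and the mean of the regulatory genes (Foxp3, Ctla4 and Icos) in that mouse was -0.02, with the others from 0.08 to 0.10. Gzma in controls was highest in replicate 1, at 3.74, with the others from 3.09 to 3.20. The mean of the 8 cytotoxic genes in controls was highest in replicate 2, at 0.19, with the others from 0.01 to 0.04.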

How the results depend on the processing

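No member was called under any alternative, with smallest adjusted p from limma between 0.273 and 0.804. At an unadjusted p under 0.05 between 1 and 6 members were lower (2.58% to 6.71% of all genes) and 0 or 1 higher (2.22% to 5.24% of all genes), and 0 to 12 of all genes were called (6 in the fit of the report). The difference in the list mean ranged from -0.22 (without control replicate 3) to -0.08 (without control replicate 2) when 1 mouse was left out. With the replicate number as a block, 0 members passed, as without it (smallest adjusted p from limma 0.456), and 3 of all genes were called. At an unadjusted p under 0.05, 4 members were lower (4.56% of all genes) and 1 higher (4.17% of all genes). Deviations from the group means correlated between -0.05 and 0.03 for same-numbered mice, so the numbers do not pair them, and not every mouse correlated best with its own number.

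The count of members without overlap, 0 over 8 mice, was 0 to 3 with 1 mouse left out (7.60% to 10.4% of all genes), 4 against the Ptch1fl/+ controls (13.6% of all genes), 2 against the R26-tdTomato controls (15.8%) and 2 in females (16.6%), so the members' share did not stand above that of all genes with fewer controls or in females. With dim genes left out, 15 members remained, and the mean difference was -0.37 for the kinases and adaptors (Lat alone), -0.03 for the regulatory genes (Icos alone) and 0.17 for the surface receptors (Cd5 and Thy1). In females the sign turned for Ccr7 (0.21), Cd3e (0.13), Cd4 (0.01), Cd8b1 (0.20) and Il7r (0.33), and likewise for Cd5 (0.11), Cd27 (0.14) and Skap1 (0.06). Where 6 members were higher over 8 mice, 11 were against the R26-tdTomato controls and 9 with array weights. Among the 21 members followed one by one, the sign turned against the R26-tdTomato controls for Ccr7 (0.02), Gzma (0.01) and Il7r (0.18), with array weights for Il7r (0.13), and in the second transcript cluster for Gata3 (-0.22). With 1 mouse left out the log2 fold changes ranged from -0.31 to 0.06 for Ccr7, -0.34 to 0.05 for Cd28, -0.46 to 0.08 for Cd8b1, -0.20 to 0.02 for Gzma, -0.04 to 0.33 for Gzmb, -0.20 to 0.20 for Il7r and -0.14 to 0.01 for Prf1. The cause was not tested. How far background limits the differences of the 17 dim members was not measured.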

Other observations

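Among the 26 promoter stretches of 22 members, AGGAAG was found in 16 (61.5%; 35.4% of all stretches), TGTGGT, a core bound by Runx factors, in 9 (34.6%; 16.8% of all) and CANNTG, the E-box, in 24 (92.3%; 72.3% of all), each searched on both strands. TGTGGT was in those of Gzma, Gzmb, Prf1, Nkg7 and Cd96 among the cytotoxic genes, and of Zap70, Lck, Lat and Il7r outside them. AGATAA was in 3 of the 26 stretches (11.5%, where 11.2% of all stretches hold it). Several stretches belong to the same gene, and these are counts of letters with no measurement of binding.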
